A study of Homo sapiens with 4 samples.

Results

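The genes described here encode enzymes that add or remove methyl groups on DNA and on histone lysines, and enzymes that remove acetyl groups from histones and other proteins. They were chosen by symbol: every gene named HDAC, SIRT, KDM or EZH with a number, KMT2 or DNMT, and TET1, TET2 and TET3, without antisense genes. This gave 51 of the 18132 genes measured on 4 Affymetrix PrimeView arrays, each read from its brightest probe set by the mean of the 4 arrays. RNA came from Hs578T, an established triple-negative breast cancer line with mesenchymal features, in 2 groups of 2 arrays. The ELK3 knockdown cells (replicates 1 and 5) were made stable by lentiviral shRNA against ELK3, an ETS family transcription factor, and the labels say no more of the ELK3 sh control cells (replicates 1 and 2) than that name. All cells were grown with fetal bovine serum and insulin. The labels do not say whether a number is a construct, a clone or a culture, so the p-values measure the spread between these arrays, which may be technical. Values are RMA log2 signals, on which a step of 1 is a 2-fold change, and differences are knockdown minus control.

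DNA methylation at CpG dinucleotides is written by DNMT enzymes and opened for removal by TET dioxygenases, which oxidise the methyl group. EZH enzymes write the repressive methyl mark on lysine 27 of histone H3. Most KMT2 enzymes write the methyl mark on lysine 4 found at active promoters and enhancers, and KDM enzymes take lysine methyl groups off again. HDAC enzymes, which need zinc, and sirtuins, which need NAD, remove acetyl groups.

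ELK3 was at 8.09 and 7.92 in knockdown replicates 1 and 5, against 10.05 and 10.07 in control replicates 1 and 2. The arrays of the groups were far apart beyond ELK3: 50.8% of all genes passed a limma adjusted p of 0.05, 29.5% higher and 21.3% lower in the knockdown arrays. Arrays of different groups correlated at 0.902 to 0.904 over all probe sets, against 0.996 between the knockdown arrays and 0.998 between the control arrays. Markers of mesenchymal breast cells were on in the control arrays, and AXL (5.83 and 5.42 in knockdown, 12.92 and 12.85 in control), THY1 (5.30 and 4.73 in knockdown, 12.02 and 11.91 in control) and FN1 (8.21 and 7.56 in knockdown, 14.05 and 14.10 in control) moved with the groups, as did VIM by -1.16. The mesenchymal genes CDH2 (-1.04) and ZEB1 (-1.11) also fell but stayed high in knockdown replicates 1 and 5. CDH2 was at 10.67 and 10.76 there, and ZEB1 at 9.31 and 9.27. The epithelial genes CDH1 and EPCAM were at 4.50 or below on all 4 arrays, as was the leukocyte gene PTPRC. Markers of other cell types did not all stay low or unchanged. NCAM1 was called higher (0.68, at 7.63 and 7.65 in knockdown), PECAM1 was called lower (-0.58) and CD3E did not pass (-0.21). How far this wide difference bears on the genes below was not tested.

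Of the 51 genes, 27 were higher in the knockdown arrays, 5 were lower and 19 did not pass. That is 52.9% higher and 9.80% lower, against 29.5% and 21.3% of all genes. Among the 10388 genes whose mean reached the median of all values (6.78), 43.1% were higher and 28.4% lower, and 46 of the 51 genes belong there. The median difference was 0.34 for the 51 genes and -0.01 for all genes. A change of more than 2-fold was called higher for 9 of the 51 genes and lower for 2 of the 51. Over all 18132 genes the shares with such a call were 10.2% higher and 7.51% lower. TET1 and DNMT3B rose most, and HDAC9 and HDAC4 fell most. The groups did not overlap for 45 of the 51 genes, where the share over all genes was 75.3%.

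**Figure D1:**
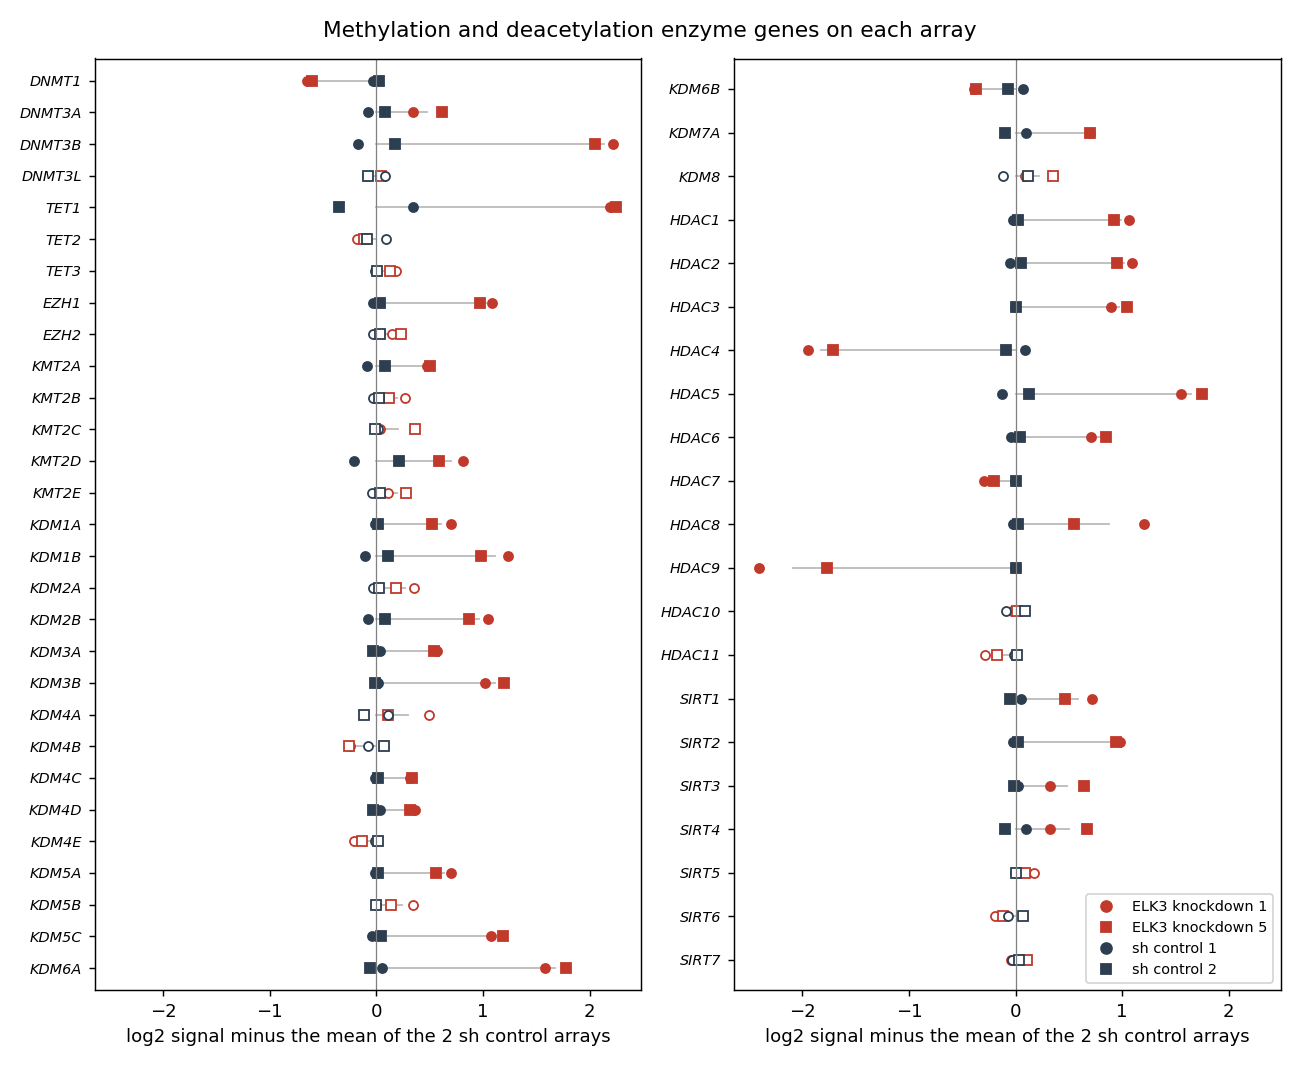
Log2 signal on each array minus the mean of the 2 sh control arrays (x axis) for 50 of the 51 genes (y axis, by family). Red marks are ELK3 knockdown arrays and dark marks sh control arrays, filled where the gene passed a limma adjusted p of 0.05 and open where it did not, and grey lines run to the knockdown mean. TET1 and DNMT3B lie farthest to the right, HDAC9 and HDAC4 farthest to the left, and HDAC1, HDAC2 and HDAC3 sit close to 1.

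The 4 genes with the largest changes by their brightest probe set have few CpG dinucleotides directly upstream of the annotated start read here. The 250 bases before that start (RefSeq, GRCh38.p14) were searched, and other starts of the same gene were not read. HDAC4 has 2, DNMT3B has 3, HDAC9 has 4 and TET1 has 9 CpG there. The median of 14425 measured genes with such a window is 18. Other genes did not follow this order: KDM6A, with the next largest change, has 27, KDM1B (1.11) has 30 and KDM7A (0.70, called) has 50, while TET2, which did not pass (-0.15), has 10. With the mean of all probe sets HDAC4 (-0.50) and HDAC9 (-0.90) lay below KDM6A (1.60) and HDAC2 (1.14, 18 CpG) in size. EZH2, whose difference did not pass, has 38, and was picked after the values were seen to show a window rich in CpG. The windows are chr10:68560087-68560336 (TET1, plus strand), chr20:32779602-32779851 (DNMT3B, plus strand), chr7:18495499-18495748 (HDAC9, plus strand), chr2:239274782-239275031 (HDAC4, minus strand) and chr7:148884292-148884541 (EZH2, minus strand). Each is written 5′ to 3′ along its gene with every CpG in capitals.
TET1: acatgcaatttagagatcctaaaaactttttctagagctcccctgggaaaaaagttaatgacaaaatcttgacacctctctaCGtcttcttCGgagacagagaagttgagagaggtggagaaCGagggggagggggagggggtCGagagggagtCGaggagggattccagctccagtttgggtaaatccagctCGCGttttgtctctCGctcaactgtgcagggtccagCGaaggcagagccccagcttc
DNMT3B: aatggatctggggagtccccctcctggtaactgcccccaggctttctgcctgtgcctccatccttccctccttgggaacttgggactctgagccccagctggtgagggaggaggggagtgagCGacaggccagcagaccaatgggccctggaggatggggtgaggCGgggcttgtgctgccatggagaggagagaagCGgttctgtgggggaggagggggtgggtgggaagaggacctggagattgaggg
HDAC9: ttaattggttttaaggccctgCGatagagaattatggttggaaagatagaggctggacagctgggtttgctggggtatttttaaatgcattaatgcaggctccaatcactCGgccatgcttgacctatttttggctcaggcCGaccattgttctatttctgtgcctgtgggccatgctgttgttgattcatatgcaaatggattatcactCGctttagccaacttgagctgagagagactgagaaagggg
HDAC4: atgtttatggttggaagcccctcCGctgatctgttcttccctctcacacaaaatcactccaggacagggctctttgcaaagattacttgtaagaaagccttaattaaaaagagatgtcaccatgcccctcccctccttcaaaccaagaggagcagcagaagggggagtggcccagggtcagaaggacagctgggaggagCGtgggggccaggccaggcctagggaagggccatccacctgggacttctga
EZH2: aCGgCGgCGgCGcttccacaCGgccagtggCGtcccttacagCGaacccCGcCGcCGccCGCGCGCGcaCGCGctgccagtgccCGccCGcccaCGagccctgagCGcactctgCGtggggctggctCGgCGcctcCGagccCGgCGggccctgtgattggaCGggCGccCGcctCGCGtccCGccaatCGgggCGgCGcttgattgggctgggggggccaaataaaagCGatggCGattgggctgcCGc

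A window was found for 47 of the 51 genes, with a median of 22 CpG. Across these 47 genes the CpG count correlated with the size of the log2 difference at r = -0.548 (Spearman -0.452), while across the 14425 genes it correlated at 0.138 (Spearman 0.255). With the mean of all probe sets, a choice made after seeing the data, the values were -0.457 (Spearman -0.437) for the 47 genes and 0.135 (Spearman 0.255) for all. These are descriptions across genes that share the same 4 arrays, and the relation was noticed after the values were seen. Of all measured genes with 0 to 7 CpG, the lowest quartile, 27.0% were called, and the 4 of the 47 genes that lie there (HDAC4, DNMT3B, HDAC9 and HDAC8) were all called. With 8 to 18 CpG, 56.4% of all genes and 7 of 10 enzyme genes were called, and with 19 to 26 CpG, 62.6% of all genes and 14 of 17 enzyme genes. In the top quartile (27 to 59 CpG), 64.8% of all genes were called, and 6 of the 16 enzyme genes that lie there. The share of enzyme genes called thus did not fall step by step with the CpG count. A single annotated start was read per gene, which need not be its most upstream or its main start. Other starts of a gene were not read, so the CpG counts and correlations hold for these windows only. Which start these cells use was not analysed here. The ETS core letters CCGGAAG, searched on both strands, stand in 7 of the 47 windows (14.9%) and in 12.1% of all windows. The 7 are KDM2B, KDM4C, KDM4D, KDM7A, SIRT3, HDAC10 and SIRT6, of which the first 5 rose. Of the 47 genes with a window 26 rose, so these are 5 of 26 (19.2%), against 2 of 16 not called (12.5%) and 0 of 5 that fell. The calls of KDM4C, KDM4D and SIRT3 were lost without a control array. How many of all genes with these letters rose was not counted. The CArG box, the site of the ELK3 partner SRF, was in 0 of the 47 windows and in 1.19% of all. These counts concern letters in this window only.

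**Figure D2:**
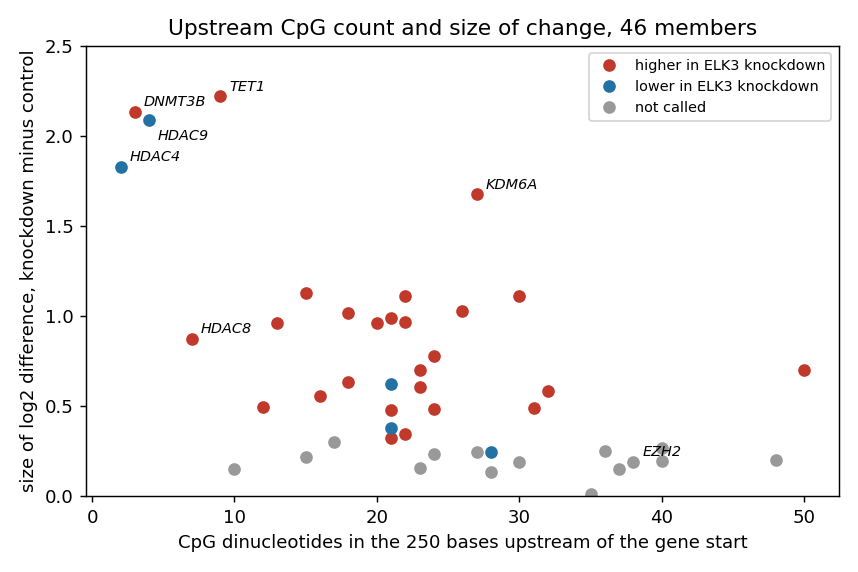
Number of CpG dinucleotides (x axis) and size of the log2 difference between ELK3 knockdown and sh control arrays (y axis) for 46 genes. Colours give the direction where called. CpG were counted in the 250 bases upstream of the annotated start read for each gene. HDAC4, DNMT3B, HDAC9 and TET1 lie at the upper left with 2 to 9 CpG, KDM6A lies high with 27, and EZH2, with 38, lies low on the right.

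DNA methylation enzymes went in different directions. DNMT3B, a de novo methyltransferase active in early development, was at 9.79 and 9.62 in knockdown arrays, against 7.40 and 7.75 in control arrays. Both knockdown arrays were far above both controls, a 4.39-fold rise (log2 difference 2.13, SE 0.14, adjusted p = 1.47e-05). Of its 11 probe sets 9 were called higher, by 0.40 to 2.35, and the other 2 stood at 0.07 each. DNMT3A, the other de novo enzyme, was at 6.99 and 7.26 in knockdown and at 6.56 and 6.72 in control arrays, a smaller difference of 0.48 (adjusted p = 0.0204) that no longer passed without knockdown replicate 5 (0.35) or control replicate 1 (0.40). DNMT1, which copies methylation onto new DNA after replication, went down: it was at 10.89 and 10.94 in knockdown arrays and at 11.51 and 11.56 in control arrays, 1.54-fold lower (SE 0.06, adjusted p = 1.01e-04), and its other probe set stood at -0.95. DNMT3L, a germ cell cofactor without catalytic activity of its own, was at 5.82 and 5.94 in knockdown and at 5.98 and 5.83 in control arrays, so the groups overlapped (-0.02, adjusted p = 0.897).

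TET1 was at 8.65 and 8.71 in knockdown arrays, against 6.80 and 6.11 in control arrays. The controls differed by 0.69, the widest gap between control arrays among the 51 genes, yet both were well below the knockdown arrays (4.66-fold, log2 difference 2.22, SE 0.21, adjusted p = 1.07e-04). A second TET1 probe set rose by 1.50. TET2, at 8.10 and 8.16 in knockdown and 8.37 and 8.19 in control arrays, and TET3, at 8.47 and 8.41 in knockdown and 8.27 and 8.29 in control arrays, did not pass (-0.15 and 0.15, adjusted p = 0.270 and 0.202). Only 1 of the 3 TET genes was therefore called in this fit, and the difference between TET1 and the other TET genes was not tested.

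Partner lists are read here against the same shares of all genes, 29.5% higher and 21.3% lower, or 43.1% and 28.4% among the brighter genes. In every list below, a called gene or more did not pass once a control array was left out. Fewer of all genes passed then as well. Of 15 readers and cofactors of DNA methylation, 10 fell (66.7%), 3 rose (20.0%) and 2 did not pass, with a median of -0.40 against -0.01 for all genes. UHRF2 and IDH2 did not pass without control replicate 1 (-0.21 and -0.34) or control replicate 2 (-0.33 and -0.39). Nor did MBD1 without control replicate 2 (-0.38). IDH1, not called, stood at -0.28 without knockdown replicate 1. ZBTB38, which binds methylated DNA, fell most (-2.03), and UHRF1, which guides DNMT1 to new DNA, fell by 0.40. ZBTB33, the methyl-CpG binding protein Kaiso, rose most (1.18). HELLS, a remodeller needed for DNA methylation, rose by 0.81, and TDG, the glycosylase that cuts out oxidised methylcytosine, by 0.63.

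Among writers and erasers of histone H3 lysine 27 methylation, EZH1 and KDM6A rose together. EZH1 was at 8.98 and 8.87 in knockdown arrays, against 7.86 and 7.93 in control arrays (2.04-fold, adjusted p = 8.33e-05). Its other probe sets stood at 0.50, called, and 0.29, not called, and the mean of all 3 at 0.61. EZH2, its counterpart in dividing cells, was at 9.92 and 10.00 in knockdown arrays and at 9.73 and 9.80 in control arrays. The groups did not overlap, but the difference of 0.19 missed the threshold (adjusted p = 0.0716). It was 0.23 without knockdown replicate 1. The other EZH2 probe sets stood at -0.16 and -0.07, so its direction rests on the probe set. The demethylase KDM6A was at 8.32 and 8.52 in knockdown arrays, against 6.80 and 6.68 in control arrays (3.20-fold, SE 0.12, adjusted p = 2.17e-05), and its other probe set rose by 1.52. KDM6B, a related demethylase known as an inducible gene in macrophages, was lower by 0.38 at the dim end of the array (adjusted p = 0.0253), a call that did not survive leaving out knockdown replicate 1 (-0.37) or control replicate 1 (-0.31).

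Of 12 partners of EZH enzymes in Polycomb repressive complex 2, 8 rose (66.7%), 1 fell (8.33%) and 3 did not pass (median 0.62). The core subunits SUZ12 (0.67) and EED (0.37) were among those that rose, and RBBP7, a histone-binding subunit, fell by 1.41. LCOR rose most (1.75), but which LCOR transcript its probe set reads was not analysed. Without knockdown replicate 5 or control replicate 2 the number that fell was 2. Proliferation genes moved beside these: of 20, 13 rose (65.0%), 4 fell (20.0%) and 3 did not pass, with a median of 0.32, from -1.48 for RRM2, a ribonucleotide reductase subunit, to 0.89 for TYMS, thymidylate synthase. Their part in the values of EZH2 and DNMT1 was not tested.

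Of the 5 KMT2 enzymes 2 rose and 3 did not pass, a share of 40.0% against 43.1% of the brighter genes. KMT2D, which marks enhancers, was at 7.61 and 7.39 in knockdown and at 6.58 and 7.01 in control arrays (1.63-fold, adjusted p = 0.00983), and did not pass with the mean of its 2 probe sets (0.32). KMT2A, the gene rearranged in leukaemias, was higher by 0.49 (adjusted p = 0.00325), with 5 of its 8 probe sets called higher. KMT2B, KMT2C and KMT2E stood at 0.20, 0.20 and 0.19 and did not pass. Without knockdown replicate 1, KMT2C stood at 0.37 and KMT2E at 0.28, and without knockdown replicate 5 KMT2B stood at 0.27. Partners of KMT2 enzymes in COMPASS complexes rose in 8 of 13 genes (61.5%) and fell in 3 (23.1%, median 0.29). WDR5, a scaffold of COMPASS complexes, rose by 1.98 (11.84 and 11.86 in knockdown, 9.85 and 9.88 in control arrays). MEN1, the menin gene, rose by 1.09. ASH2L, another COMPASS subunit, fell by 0.94.

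Demethylases acting on lysine 4 rose in 4 of 6 genes (66.7%), against 29.5% of all genes and 43.1% of the brighter genes. KDM5C was at 10.14 and 10.25 in knockdown arrays, against 9.02 and 9.11 in control arrays (2.19-fold, adjusted p = 2.67e-05), and 6 of its 7 probe sets were called higher, with a mean of all 7 at 0.66. KDM5A was at 9.62 and 9.49 in knockdown and at 8.91 and 8.94 in control arrays (1.55-fold). KDM5B stood at 0.24 (adjusted p = 0.095), or at 0.35 without knockdown replicate 5. KDM5D is Y-linked; it did not pass and its levels are not printed. Both flavin-dependent demethylases rose. KDM1B was at 9.44 and 9.19 in knockdown and at 8.09 and 8.31 in control arrays (2.16-fold), but its other probe set stood at 0.21 without passing and the mean of both at 0.66. KDM1A, known as LSD1, was at 11.82 and 11.65 in knockdown and at 11.11 and 11.14 in control arrays (1.52-fold, adjusted p = 3.37e-04).

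Of the remaining demethylases, KDM3B, which acts on lysine 9, was at 10.30 and 10.48 in knockdown arrays, against 9.29 and 9.27 in control arrays (2.16-fold, adjusted p = 3.77e-05). Its relative KDM3A, known as a hypoxia-induced gene, was higher by 0.56, on all 3 of its probe sets. KDM2B, which binds unmethylated CpG DNA, was at 9.89 and 9.71 in knockdown and at 8.76 and 8.92 in control arrays (1.95-fold). KDM2A just missed the threshold (0.27, adjusted p = 0.0502) and stood at 0.35 without knockdown replicate 5. KDM7A was at 8.01 and 8.01 in knockdown and at 7.41 and 7.21 in control arrays (1.62-fold, adjusted p = 0.00139), by its brighter probe set; the other, dim one stood at -0.02 and the mean of both at 0.34. The KDM4 enzymes act on lysine 9, and some of them also on lysine 36. Among their genes KDM4C (0.33) and KDM4D (0.34) passed narrowly, while KDM4A (0.30), KDM4B (-0.25) and KDM4E (-0.17) did not. KDM8 did not pass either (0.22). The calls of KDM4C and KDM4D were lost without control replicate 1 (0.31 and 0.38) or control replicate 2 (0.34 and 0.31), that of KDM4D also without knockdown replicate 1 (0.32), and a second KDM4D probe set stood at -0.13. None of the other 4 KDM4C probe sets was called (-0.02 to 0.26), and with the mean of all probe sets neither KDM4C (0.15, adjusted p = 0.188) nor KDM4D (0.11) passed. KDM4A stood at 0.50 without knockdown replicate 5 and KDM8 at 0.35 without knockdown replicate 1.

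Over the 19 KDM genes, 11 rose (57.9%), 1 fell (5.26%) and 7 did not pass (median 0.34). Of all genes 29.5% were higher and 21.3% lower, and of the brighter genes 43.1% and 28.4%. Other JmjC proteins rose in 5 of 9 genes (55.6%) and fell in 2 (22.2%). PHF8, an eraser of lysine 9 and 20 marks, was higher by 1.30, and RIOX1, a nucleolar oxygenase, was lower by 3.11 (3.93 and 4.12 in knockdown, 7.13 and 7.13 in control arrays). Without control replicate 1, or without control replicate 2, only 1 of these 9 fell. Other histone lysine methyltransferases rose in 12 of 22 genes (54.5%) and fell in 5 (22.7%). Without control replicate 1, or without control replicate 2, the counts were 7 (31.8%) and 3 (13.6%), while over all 18132 genes 4495 and 4631 were then higher and 3311 and 3088 lower. EHMT1, which methylates lysine 9, rose most (1.72), and SMYD3 fell most (-3.04), with 6.95 and 5.09 in the knockdown arrays, which differed widely from each other, and 9.01 and 9.10 in the control arrays.

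**Figure D3:**
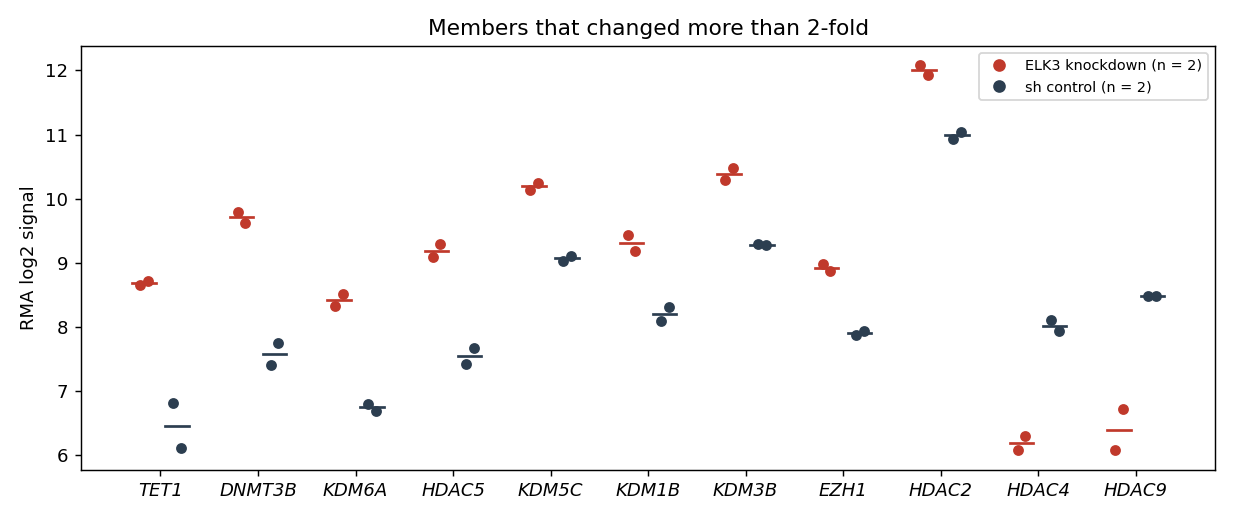
RMA log2 signal (y axis) of the 11 genes called with a change of more than 2-fold, with 2 ELK3 knockdown arrays (red, left) and 2 sh control arrays (dark, right) per gene; points are arrays and lines group means. In each of the 11 genes the arrays of a group lie closer to each other than to those of the other group, and HDAC4 and HDAC9 are the genes that lie lower in the knockdown arrays.

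Class I histone deacetylases rose in 4 of 4 genes, where 29.5% of all genes and 43.1% of the brighter genes were higher. HDAC1, HDAC2 and HDAC3 are nuclear catalytic subunits of corepressor complexes. HDAC1 was at 12.31 and 12.17 in knockdown arrays, against 11.23 and 11.27 in control arrays (1.99-fold, SE 0.06, adjusted p = 1.58e-05). HDAC2, with which it forms dimers in the same complexes, was at 12.08 and 11.94 in knockdown and at 10.94 and 11.04 in control arrays (2.03-fold). HDAC3, the subunit of the NCOR complexes, was at 10.13 and 10.27 in knockdown and at 9.23 and 9.23 in control arrays (1.96-fold). The log2 differences of these 3 genes lay between 0.97 and 1.02, and each had an SE of 0.06 to 0.08, by their brightest probe sets. With the mean of all probe sets HDAC1 stood at 0.61, since a dim HDAC1 probe set was at -0.20 without passing, and HDAC2 at 1.14. HDAC8 was at 8.09 and 7.44 in knockdown arrays, against 6.87 and 6.92 in control arrays (1.83-fold, SE 0.20, adjusted p = 0.00917). The knockdown arrays differed by 0.65 there, the widest such gap among the 51 genes, and replicate 1 was above replicate 5 by 0.53 to 0.88 on all 7 HDAC8 probe sets called higher. The eighth, dim one stood at -0.29 without passing.

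Class IIa deacetylases, which shuttle between nucleus and cytoplasm and bind MEF2 factors, split. HDAC9 was at 6.07 and 6.71 in knockdown arrays, against 8.48 and 8.48 in control arrays, 4.25-fold lower (SE 0.20, adjusted p = 1.10e-04). All 5 of its probe sets were lower, 4 of them called, and their mean stood at -0.90. HDAC4 was at 6.07 and 6.30 in knockdown and at 8.10 and 7.93 in control arrays, 3.55-fold lower (adjusted p = 2.42e-05). That size rests on 1 probe set whose name marks probes shared with other transcripts: the other 5 stood between -0.53 and -0.05, with 1 of them called, their mean with it at -0.50, and without it HDAC4 did not pass (-0.09). HDAC5 went the other way, at 9.09 and 9.28 in knockdown arrays, against 7.41 and 7.66 in control arrays (3.14-fold, SE 0.12, adjusted p = 3.08e-05), or 0.66 with the mean of its 3 probe sets. HDAC7 was lower by 0.25 (adjusted p = 0.0416), a call lost without control replicate 1 (-0.25) or control replicate 2 (-0.24), and with the mean of its probe sets (-0.14).

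HDAC6, a cytoplasmic tubulin deacetylase of class IIb, was at 9.33 and 9.47 in knockdown arrays, against 8.58 and 8.66 in control arrays (1.72-fold, adjusted p = 2.82e-04). HDAC10, which deacetylates polyamines, overlapped between groups (-0.01, adjusted p = 0.954). HDAC11, the class IV enzyme, stood at -0.23 by its brightest probe set (adjusted p = 0.119), while another of its 5 probe sets was called higher by 0.77. Over all 11 zinc-dependent enzymes 6 rose (54.5%), 3 fell (27.3%) and 2 did not pass. Of all genes 29.5% were higher and 21.3% lower, and of the brighter genes 43.1% and 28.4%. Of 23 corepressor subunits measured, 13 rose (56.5%) and 5 fell (21.7%, median 0.42). The NuRD subunit MTA3 rose most (1.21), followed by the SIN3 complex subunit SUDS3 (1.01), and the NCOR subunit TBL1X fell most (-0.89).

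By their brightest probe sets sirtuins rose in 4 of 7 genes (57.1%) and fell in 0. Of all genes 29.5% were higher and 21.3% lower, and of the brighter genes 43.1% and 28.4%. SIRT2, a mostly cytoplasmic deacetylase, was at 10.90 and 10.86 in knockdown arrays, against 9.89 and 9.94 in control arrays (1.95-fold, adjusted p = 2.12e-05). Its other 2 probe sets were called lower, by -0.55 and -0.54, so the direction of SIRT2 rests on the probe set. The nuclear enzyme SIRT1 was at 9.46 and 9.20 in knockdown and at 8.80 and 8.69 in control arrays (1.50-fold, adjusted p = 0.0031), and by its other probe set stood at 0.20 without passing. The mitochondrial SIRT3 (0.48) and SIRT4 (0.50) also passed. With control replicate 1 left out SIRT3 did not pass (0.50), with knockdown replicate 5 left out SIRT4 did not (0.33), and with control replicate 2 left out neither did (0.46 and 0.40), so that 2 of 7 rose. SIRT5, the mitochondrial desuccinylase, stood at 0.13, but its second probe set, at 7.41 and 7.57 in knockdown and 6.04 and 5.63 in control arrays, was called higher by 1.66. SIRT6, a nuclear enzyme of telomeres and DNA repair, stood at -0.16 by its brightest probe set, and its other 4 probe sets were called lower, by -0.47 to -0.35. The nucleolar SIRT7 did not pass (0.03).

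The writers that oppose the deacetylases rose in 8 of 10 genes (80.0%) and fell in 1 (10.0%). The coactivators EP300 and CREBBP were higher by 1.24 and 1.21, KAT2A by 1.16 and KAT6B, with the largest rise, by 1.31, while HAT1, which acetylates newly made histones, was lower by 0.37 and did not pass without control replicate 1 (-0.32). The median of the 10 was 0.59.

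**Figure D4:**
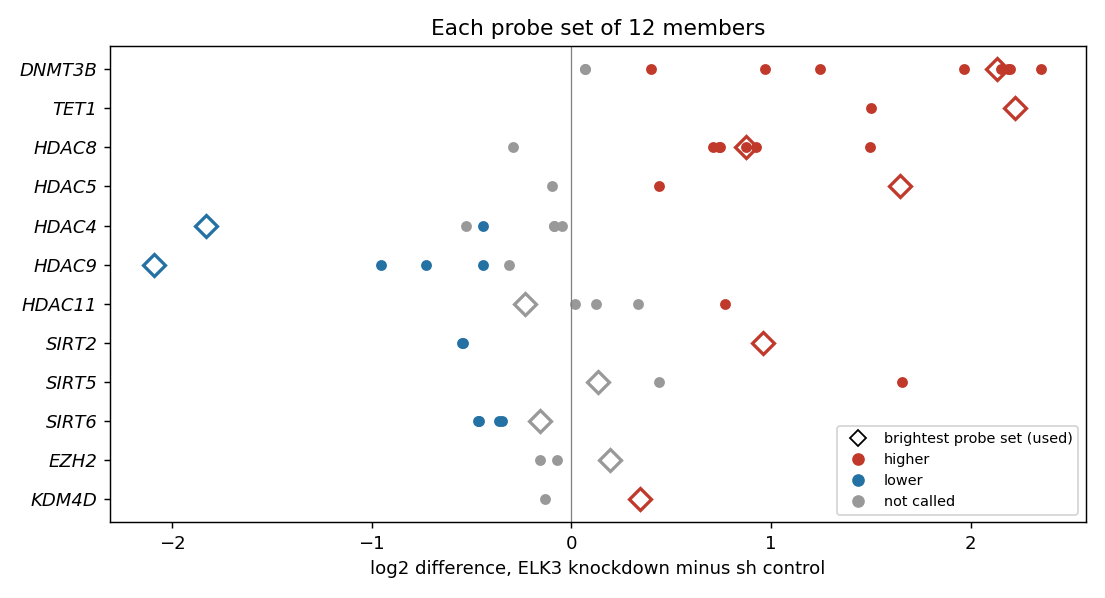
Log2 difference between ELK3 knockdown and sh control arrays (x axis) for every probe set of 12 genes (y axis); diamonds are the brightest probe set, used in the text, and dots the others, coloured by limma call. SIRT2 has probe sets called in both directions, HDAC4 has 1 probe set at -1.83 and the others between -0.53 and -0.05, and 9 of 11 DNMT3B probe sets are called higher.

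Of the 32 genes called, 29 had several probe sets. For 21 of these another probe set was called in the same direction, and for 1, SIRT2, a probe set was called in the opposite direction.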

How the data were processed

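Expression was measured on 4 Affymetrix PrimeView arrays, 2 of ELK3 knockdown and 2 of sh control Hs578T cells, grouped by their labels. The deposited values are log2 signals that the authors made with RMA, per the submitters' processing notes; which version and options were used is not given in the sources used here. Array medians lie between 6.76 and 6.80, and such values come without a detection call.

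Gene symbols come from the platform's annotation table: of 49293 probe sets, 44988 have 1 symbol, 1832 have several and 2473 are unnamed here. The test was two-sided moderated limma 3.58.1 (R 4.3.3) with the variance prior following intensity, adjusted by Benjamini-Hochberg over 18132 genes and called at an adjusted p under 0.05, with 2 residual and 4.83 prior degrees of freedom. Arrays have no depth, so their number limits the precision; an exact permutation test of 1 gene could not go below 0.333. The fit was tested on simulated data. Values on every array are given for genes called with a fold over 1.5 and for all DNMT, TET and EZH genes; of each list the largest called rise and fall are named, and other genes were named after their values were seen. The genes and lists were chosen with earlier results of these data known. Promoter windows come from RefSeq (GRCh38.p14), with a single window kept per gene. Figures used matplotlib 3.10.9.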

Additional observations from a re-analysis of the deposited data

How the results depend on the processing

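Of the 32 genes called, 18 kept their direction and their call under every alternative that could be fitted. Without probe sets whose names end in _x_at, _s_at or _a_at, 24 of the 51 genes were left, with 10 called (8 higher, 2 lower). Over all genes still measured 3057 were called (1718 higher, 1339 lower) and over the lists 37 (27 higher, 10 lower), since far fewer probe sets were tested. Fewer than 18132 genes were tested in this setting, so these counts are not shares of that number. With a fold over 1.5 and an unadjusted p under 0.05, as in the series' design text, 20 of the 51 genes were higher and 3 lower, 5753 of all genes passed (3469 higher, 2284 lower) and 55 list genes (40 higher, 15 lower). With an adjusted p under 0.05 and that fold the counts were 20 and 3, then 5748 (3465 higher, 2283 lower) and 55 (40 higher, 15 lower). Leaving out 1 array at a time gave 26 to 34 called genes of the 51, 23 to 30 higher and 3 to 5 lower, the fewest lower without control replicate 1; a lone array is then assumed to vary like the other group. Calls over all genes moved the same way: fewer passed without a control array and more without a knockdown array. The range is thus not shown to be particular to the 51 genes. The sign turned with the mean of all probe sets for SIRT2 (-0.042), EZH2 (-0.013), HDAC11 (0.20) and KMT2B (-0.065). It turned without _x_at, _s_at and _a_at probe sets for HDAC8 (-0.29), KDM4D (-0.13), KDM4B (0.046) and KMT2B (-0.36). Without _x_at and _s_at ones, a choice made after seeing the data, it turned for SIRT2 (-0.55), KDM4D (-0.13) and HDAC11 (0.77), and HDAC4 and SIRT1 were no longer called. DNMT3B stood at 0.07 where its single remaining probe set was a dim one. SIRT7 was at -0.0075 with quantile normalization. With 1 array left out, DNMT3L ranged from -0.10 to 0.057, HDAC10 from -0.097 to 0.077 and SIRT7 from -0.044 to 0.11. The cause of these turns was not tested. No paired analysis was possible because the groups share only the replicate number 1. The signal of dim probe sets limits how small a change can be seen.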

Other observations

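The 4 X-linked genes among those with printed levels, KDM6A, KDM5C, HDAC6 and HDAC8, were all higher in the knockdown arrays, with a median difference of 1.00. Of 674 X-linked genes tested, 34.7% were higher and 17.2% lower, with a median of 0.04. Among the 20 tested genes nearest to each (10 on each side), 10 were higher around KDM6A, 10 around KDM5C, 10 around HDAC6 and 9 around HDAC8, and 1, 3, 2 and 3 were lower.

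Neighbours were counted for all 51 genes, against 29.5% higher and 21.3% lower over all genes. Of the neighbours of the 27 enzyme genes that rose, 37.5% were higher and 18.4% lower, and higher ones outnumbered lower ones around 21 of the 27 genes and were outnumbered around 4. Of the neighbours of the 5 that fell, 20.0% were higher and 35.0% lower, and lower ones were more around 3 of the 5. Around the 19 that did not pass, 28.4% were higher and 17.5% lower, and higher ones outnumbered lower ones around 11 and were outnumbered around 5. The same majorities were not counted around all measured genes. Single genes went either way: around TET1 12 of 20 were higher and 3 lower, and around HDAC4 11 were lower and 3 higher, while around DNMT3A, itself higher, 10 were lower and 2 higher, and around KDM7A, itself higher, 8 were lower and 5 higher. HDAC8 differed by 0.65 between the knockdown arrays, while its neighbours differed by a median of 0.05. Over the 51 genes the median absolute gap was 0.15 between the knockdown arrays and 0.08 between the control arrays. It exceeded 0.5 for 2 genes between the knockdown arrays, HDAC8 and HDAC9, and for 1 gene, TET1, between the control arrays.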
